A study of Saccharomyces cerevisiae with 12 samples.

Results

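The histone genes of Saccharomyces cerevisiae, the budding yeast, were described in 12 RNA-seq libraries of 6 genotypes. They were 10 of the 7126 genes of the deposited table, found by gene symbol. HTA1 and HTA2 encode histone H2A, HTB1 and HTB2 encode H2B, HHT1 and HHT2 encode H3, and HHF1 and HHF2 encode H4. HTZ1 encodes the H2A variant H2A.Z, and HHO1 encodes the linker histone H1. All cells were of the CEN.PK strain background, had been grown in rich lactate medium (YPL), and had been moved to minimal lactate medium (SL) for 1 hour, the wild type included. The genotypes, with 2 libraries each, were opi1set2 (OPI1 and SET2 deleted), cho2set2 (CHO2 and SET2 deleted), opi1, cho2, set2 and the wild type (WT). SET2 encodes the enzyme that methylates histone H3 at lysine 36, CHO2 a phosphatidylethanolamine methyltransferase that uses S-adenosylmethionine, and OPI1 a repressor of phospholipid synthesis genes. All 10 histone genes passed the filter on low values (an FPKM, a count scaled to gene length and library size, of at least 1 in at least 2 libraries), as did 6583 genes in all.

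Histones package DNA into nucleosomes, in which DNA is wrapped around an octamer of H2A, H2B, H3 and H4. In budding yeast the core histone genes lie as divergent pairs, each pair with its regulatory elements in the DNA between the 2 genes, and they are transcribed mainly in late G1 and S phase, when DNA is replicated. The activators Spt10, SBF and MBF bind between the genes, and the HIR complex, with Asf1 and Rtt106, represses the pairs other than HTA2-HTB2 outside S phase. HTZ1 and HHO1 lie apart from these pairs, and H2A.Z is placed next to promoters by the SWR1 complex.

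Each library held between 7383001 and 9461609 counts, and the limit that a count of 0 sets on a level (3 counts of the total) was between 0.317 and 0.406 CPM, which are counts scaled to a common library size, counting error only. The histone genes took between 0.314% and 0.553% of the counts of a library. As a check of the labels, SET2 had 0 counts in both opi1set2 libraries and in both set2 libraries, and 153 and 181 in WT. Of the cho2set2 libraries, replicate 2 held 0 SET2 counts but the one labelled replicate 1 held 50, so directions that rest on cho2set2 draw on 1 library that goes in part against its label, and the called changes of histone genes in cho2set2 are also given without it. CHO2 had 2 and 4 counts in cho2set2, 10 and 13 in cho2, and 3305 and 3320 in WT. OPI1 had 0 and 1 count in opi1set2, 0 in both opi1 libraries, and 980 and 1227 in WT. Whether the pair of libraries of each genotype stands for separate cultures is not stated, so p-values measure the spread between these libraries, which may be technical.

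The 8 core histone genes lie as 4 divergent pairs: HTB1-HTA1 on chromosome IV, HTA2-HTB2 and HHF1-HHT1 on chromosome II, and HHT2-HHF2 on chromosome XIV, with intergenic regions of 817, 699, 646 and 676 bases. HTZ1 is on chromosome XV (303579 to 303983, minus strand) and HHO1 on chromosome XVI (308828 to 309604, minus strand), in the coordinates of the sacCer3 build. No annotated gene overlaps any of the 10. The middle 300 bases of each region between the paired genes follow, because the paired genes share them and yet differed in part in the data below. HHT2 and HHF2 differed most. They were read from the plus strand of the RefSeq R64 genome, whose gene coordinates are those of the deposited table, and which is the S288C reference and not CEN.PK. Capitals mark matches, on either strand, to the Spt10 upstream activating motif TTCCNNNNNNTTCNC, the SBF motif CNCGAAA (SCB) or the MBF motif ACGCGT (MCB). HTB1-HTA1 is chrIV:914971-915270, HTA2-HTB2 is chrII:235992-236291, HHF1-HHT1 is chrII:255858-256157 and HHT2-HHF2 is chrXIV:576239-576538.
HTB1-HTA1: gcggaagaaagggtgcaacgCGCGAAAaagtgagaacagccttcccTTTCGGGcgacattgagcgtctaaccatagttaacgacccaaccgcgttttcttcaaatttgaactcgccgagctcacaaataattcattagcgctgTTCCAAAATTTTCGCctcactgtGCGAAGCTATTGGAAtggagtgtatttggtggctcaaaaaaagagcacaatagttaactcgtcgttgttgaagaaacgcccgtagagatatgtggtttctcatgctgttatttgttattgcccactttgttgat
HTA2-HTB2: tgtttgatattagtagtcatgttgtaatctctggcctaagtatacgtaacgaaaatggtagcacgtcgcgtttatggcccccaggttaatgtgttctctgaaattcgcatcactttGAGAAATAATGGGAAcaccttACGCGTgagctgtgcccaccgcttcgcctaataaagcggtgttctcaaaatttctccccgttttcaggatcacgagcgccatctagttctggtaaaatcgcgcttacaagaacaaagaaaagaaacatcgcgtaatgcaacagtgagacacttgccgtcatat
HHF1-HHT1: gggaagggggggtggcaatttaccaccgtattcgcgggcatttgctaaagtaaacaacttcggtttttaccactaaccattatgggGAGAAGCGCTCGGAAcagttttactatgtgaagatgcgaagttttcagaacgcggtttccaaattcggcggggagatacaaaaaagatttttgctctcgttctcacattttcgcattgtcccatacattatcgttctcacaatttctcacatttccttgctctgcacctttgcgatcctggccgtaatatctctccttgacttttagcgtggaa
HHT2-HHF2: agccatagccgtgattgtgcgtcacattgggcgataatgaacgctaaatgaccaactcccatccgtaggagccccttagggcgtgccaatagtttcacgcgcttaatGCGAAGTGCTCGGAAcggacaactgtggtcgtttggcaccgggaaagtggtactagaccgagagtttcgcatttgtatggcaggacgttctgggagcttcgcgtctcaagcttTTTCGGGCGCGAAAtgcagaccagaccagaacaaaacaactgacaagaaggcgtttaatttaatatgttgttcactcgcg
The Spt10 motif was found in all 4 windows, with 2 matches between HTB1 and HTA1 and 1 in each of the others. It was in 27 of 1174 windows of the same length at the middle of divergent intergenic regions of the genome (2.30%). The 4 histone regions were not left out of those windows. Spt10 is given above as an activator that binds between these genes, so a match in all 4 is no independent result. An SCB match stood in the HTB1-HTA1 and HHT2-HHF2 windows, with 2 matches in each, against 14.5% of the 1174 windows. The only MCB match was in the HTA2-HTB2 window, and 3.83% of windows held one. The motif CATGTG, the core of the inositol-sensitive element on which Opi1 acts, was in none of the 4 windows and in 9.45% of the 1174. The SCB and MCB matches did not overlap the Spt10 matches. These are matches of letters and not measured binding.

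**Figure D1:**
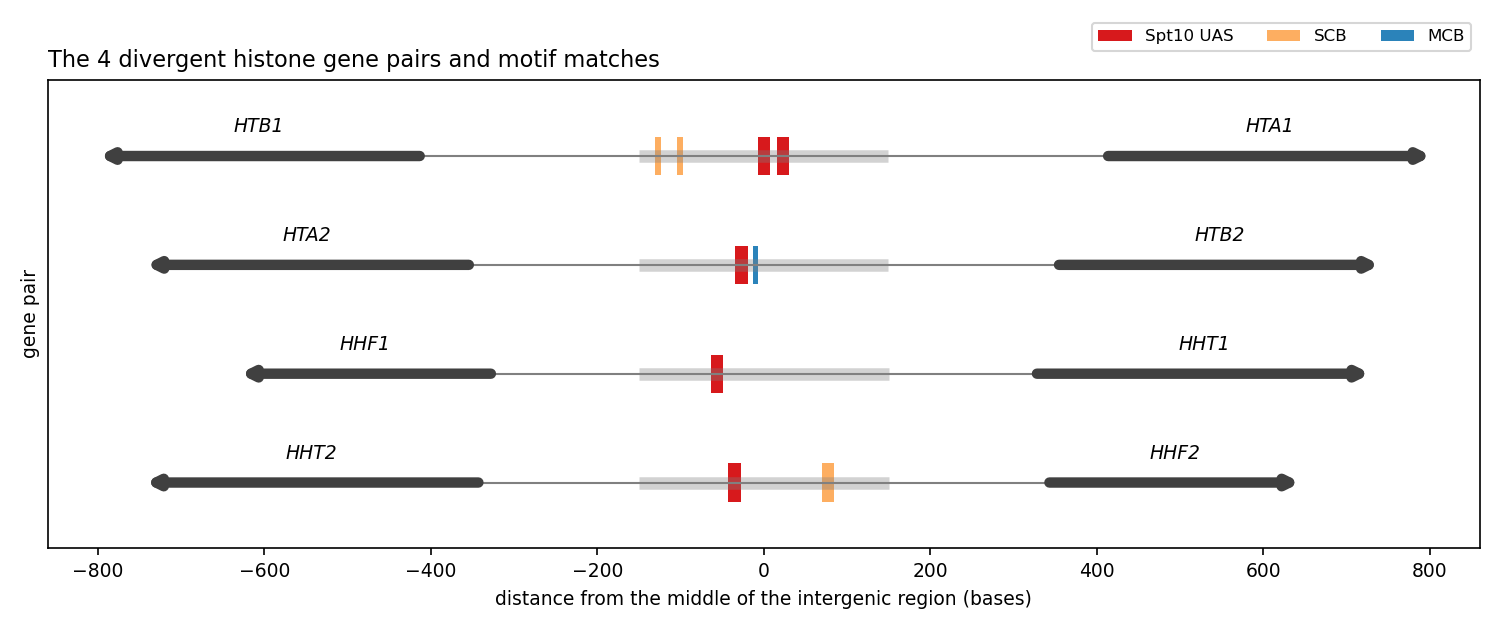
Map of the 4 divergent histone gene pairs, drawn to scale, with the distance in bases from the middle of the region between the 2 genes on the x axis. Arrows are coding regions, the grey bar is the 300-base window whose sequence is given, and coloured boxes are matches to the Spt10 (red), SCB (orange) and MCB (blue) motifs. All 4 windows hold an Spt10 match, and an MCB match is drawn in the HTA2-HTB2 window alone.

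The 2 copies of each core histone are near identical, which bears on how reads were counted. Their coding sequences differ at 25 of 399 bases between HTA2 and HTA1 (93.7% identity), at 48 of 396 between HTB2 and HTB1 (87.9%), at 28 of 411 between HHT2 and HHT1 (93.2%) and at 8 of 312 between HHF2 and HHF1 (97.4%). The longest run that a pair shares is 80 bases in the H4 genes, 74 in the H3 genes, 65 in the H2A genes and 35 in the H2B genes. How reads that match both copies were handled is not given in the sources used here, so the split of counts between 2 copies is uncertain, most of all for HHF1 and HHF2. The stretch of H3 that Set2 acts on is an example. Codons are counted here from the start codon, so that lysine 36 is codon 37. Codons 27 to 47 of HHT2, with the codon of lysine 36 in capitals, are the same in HHT1, with 0 differing bases:
HHT2: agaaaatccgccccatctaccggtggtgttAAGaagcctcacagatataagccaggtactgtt

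**Figure D2:**
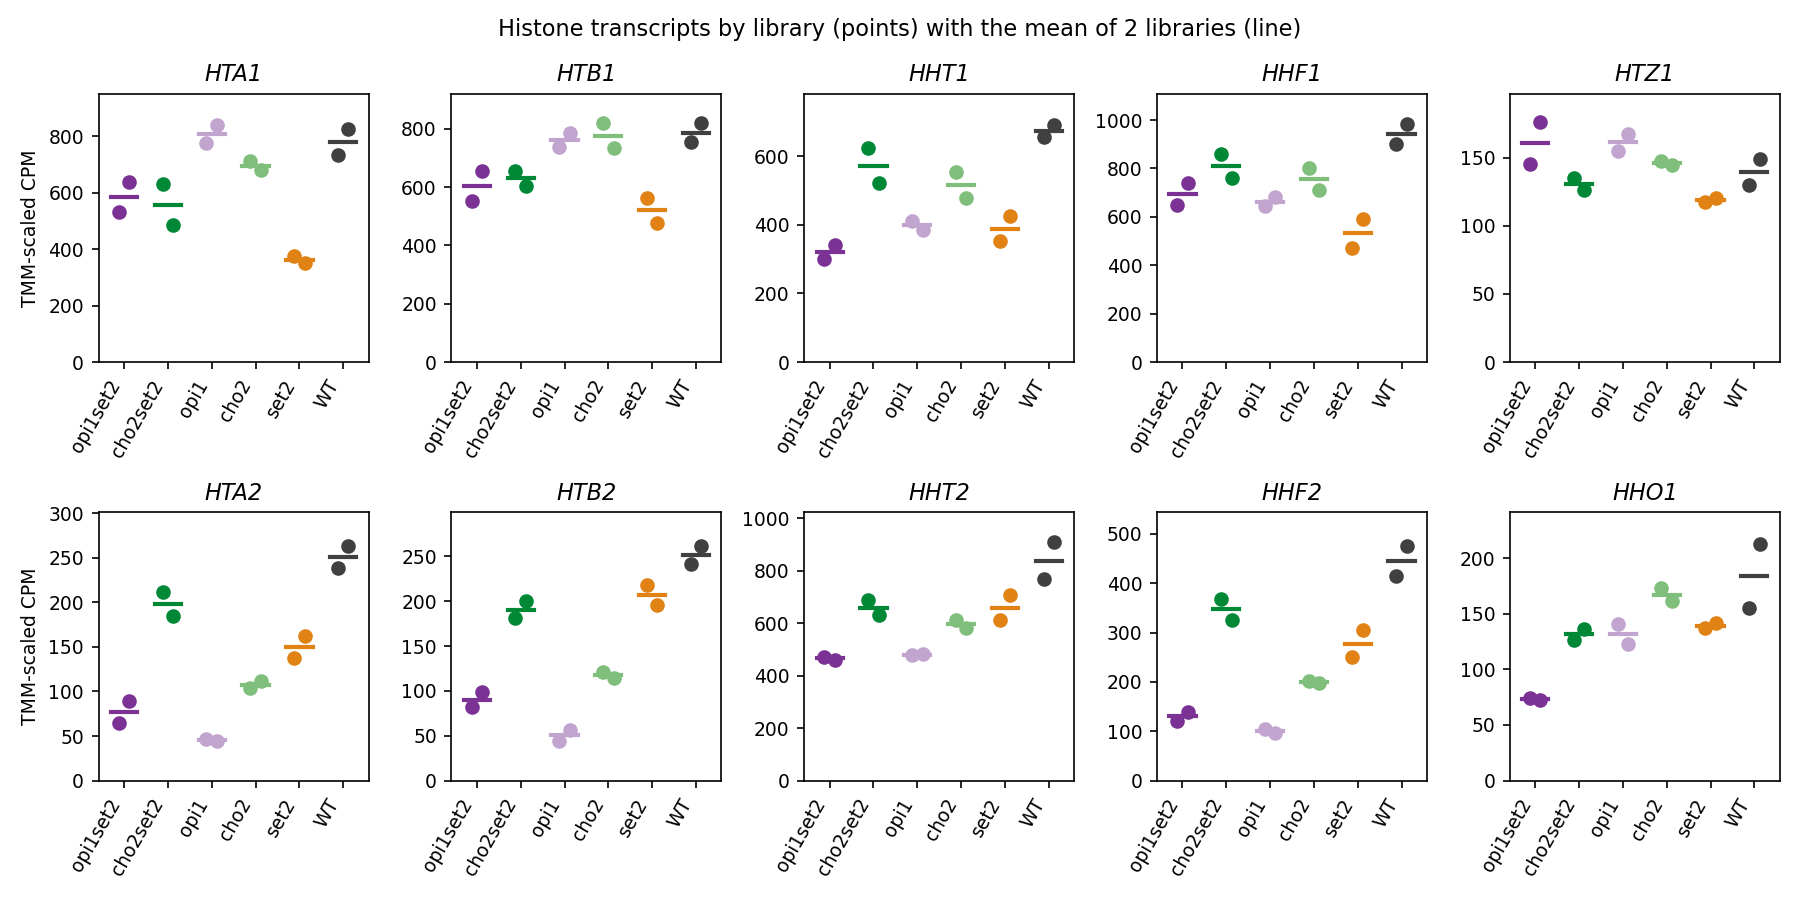
TMM-scaled CPM (y axis, starting at 0, a scale of its own for each gene) of the 10 histone genes in each library (points), with the mean of the 2 libraries (line), by genotype. In HTA2, HTB2 and HHF2 the opi1 libraries are the lowest and the WT libraries the highest, whereas in HTA1 the set2 libraries are the lowest.

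Per length, histone genes were among the most abundant transcripts. In WT, HHF1 averaged 3040.1 ± 110 FPKM (SD, n = 2) and stood 48th of 6583 genes. HHT2, HTB1 and HTA1 followed with 2054 ± 190 FPKM, 1999 ± 64.1 FPKM and 1971 ± 113 FPKM, and their libraries overlapped. HHT1 had 1653 ± 18.1 FPKM and HHF2 1436 ± 103 FPKM, without overlap. HTB2 and HTA2, the less abundant copies of H2B and H2A, had 639.8 ± 18.4 FPKM and 632 ± 28.3 FPKM and overlapped. HTZ1 had 346 ± 24.8 FPKM, and HHO1 was the lowest of the 10 with 238 ± 46.1 FPKM. The order was another one in opi1, where HTB2 fell to 116 ± 17.8 FPKM and HTA2 to 103 ± 6.18 FPKM. Both were then below HHO1, with 155 ± 18.6 FPKM in opi1, and their ranks among the 6583 genes were 1482 and 1638 in opi1, against 329 and 335 in WT.

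Changes were tested with edgeR's quasi-likelihood test on counts with TMM scaling, 2-sided, in 1 fit of all 12 libraries, with Benjamini-Hochberg adjustment across the 6583 genes tested (threshold 0.05). Each adjusted p below is that one unless another tool is named. Log2 changes are given with their SE, and levels below are TMM-scaled CPM in the 2 libraries of a genotype. In bulk RNA, fewer cells that transcribe a gene and less RNA per cell cannot be told apart. Shares over all genes are of the 6580 genes other than SET2, CHO2 and OPI1.

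Against WT, none of the 10 histone genes was called higher in any mutant by edgeR or DESeq2, and at an unadjusted p under 0.05 the number higher was also 0 in each. In opi1set2, 9 of 10 were lower (median log2 change -0.96, all genes -0.00), where 17.9% of all genes were lower and 21.3% higher. In cho2set2, 2 were lower (median -0.34), where 6.99% of all genes were lower and 11.6% higher. In opi1, 7 were lower (median -0.63), where 8.77% of all genes were lower and 8.94% higher. In cho2, 3 were lower (median -0.35), where 1.47% of all genes were lower and 0.243% higher. In set2, 8 were lower (median -0.64), where 15.9% of all genes were lower and 18.5% higher. The count for cho2set2 was 0 without WT replicate 2 and 0 without cho2set2 replicate 2, and it was 1 without the library labelled cho2set2 replicate 1. The 5 comparisons share the WT libraries, so their values are given side by side and no overlap between them is read.

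Loss of SET2 in a lipid mutant gave calls of higher histone genes, and in opi1 also calls of lower ones. Of the 10 genes, 3 were higher and 2 lower in opi1set2 than in opi1, with a median log2 change of -0.02. Of all genes, 23.5% were higher there and 20.8% lower. These counts are near the shares of all genes, and DESeq2 called 3 higher and 4 lower. The count of 5 fell to 3 without opi1 replicate 1 and to 3 without opi1 replicate 2. In cho2set2 against cho2, 3 were higher and 0 lower, where 11.3% of all genes were higher and 5.58% lower, and 3 were called without any 1 of the 4 libraries. Against set2, 2 were higher and 5 lower in opi1set2 (all genes 13.5% and 12.3%). In cho2set2 against set2, 3 were higher and 0 lower (all genes 4.01% and 3.88%), a count of 0 without the library labelled cho2set2 replicate 1 and of 0 without set2 replicate 1. In opi1 against cho2, 3 were lower and 0 higher (all genes 4.53% and 4.27%).

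**Figure D3:**
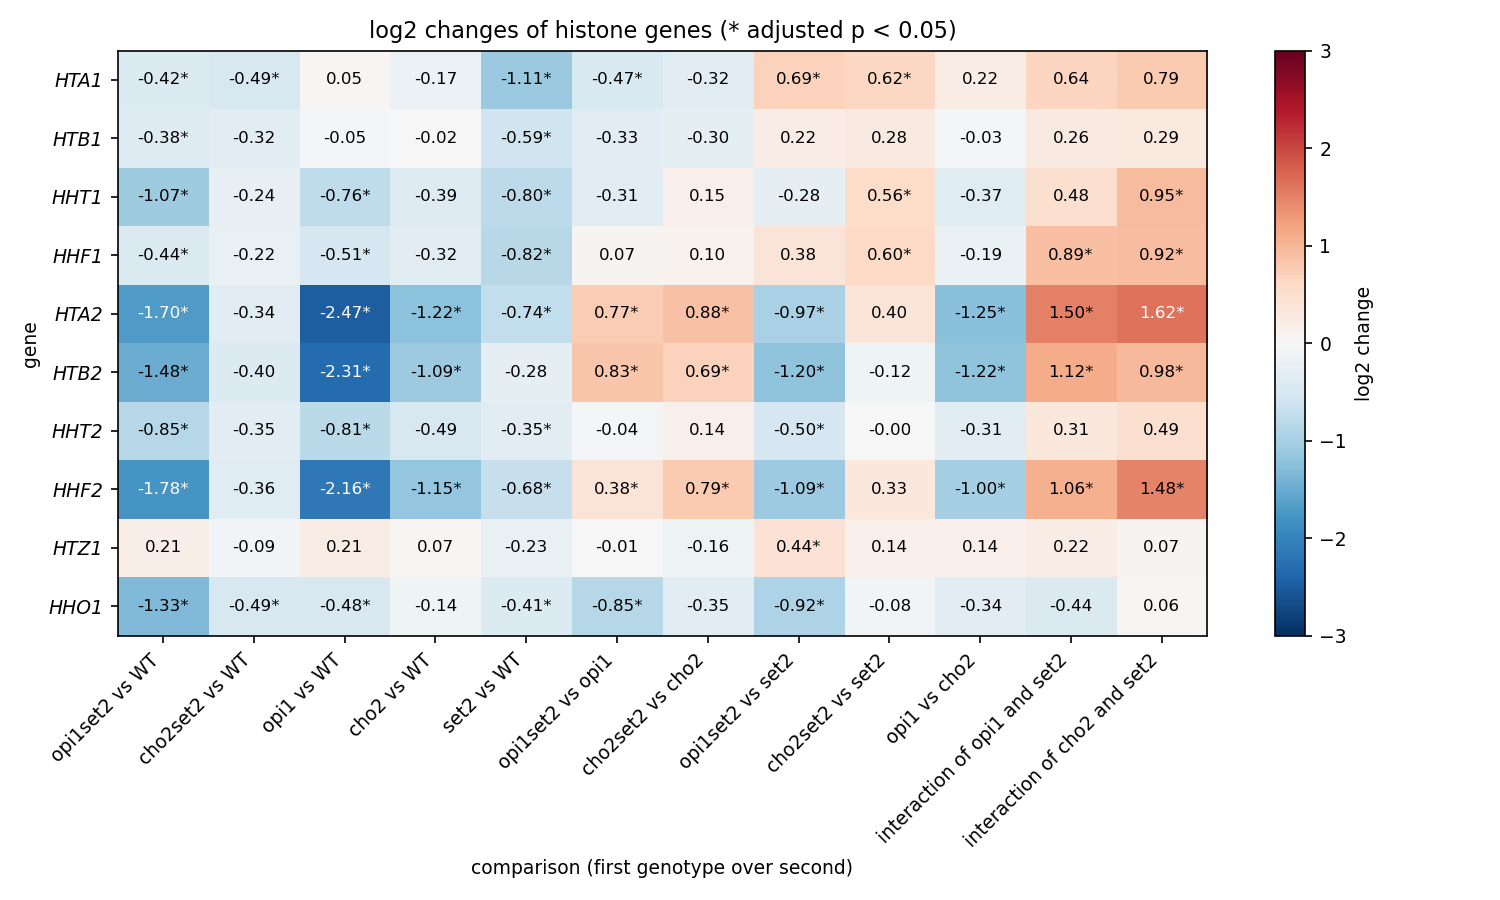
Log2 change (colour and number, red higher, blue lower in the first-named genotype) of the 10 histone genes (rows) in 10 comparisons of genotypes and 2 interaction terms (columns), from edgeR, with an asterisk where the adjusted p is under 0.05. HTA2, HTB2 and HHF2 are the genes with the deepest blue in opi1 against WT, with log2 changes of -2.47, -2.31 and -2.16, beside 0.05 and -0.05 for HTA1 and HTB1.

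HTA2 and HTB2, the divergent pair of the less abundant H2A and H2B copies, were lowered most in opi1. HTA2 had 65.0 and 88.9 CPM in opi1set2, 212 and 185 in cho2set2, 46.4 and 44.0 in opi1, 104 and 112 in cho2, 138 and 163 in set2, and 238 and 263 in WT. No 2 of these 6 ranges overlapped. HTA2 fell by 2.47 ± 0.16 on the log2 scale in opi1 against WT (edgeR adjusted p = 1.50e-07), which is 5.54-fold, and by 1.22 ± 0.15 in cho2 against WT (adjusted p = 0.000269). It fell by 1.70 ± 0.15 in opi1set2 (adjusted p = 1.77e-06) and by 0.74 ± 0.15 in set2 (adjusted p = 0.00166), and in cho2set2 its change of -0.34 ± 0.15 was not called (adjusted p = 0.131). Between the mutants HTA2 was lower by 1.25 ± 0.16 in opi1 than in cho2 (adjusted p = 0.000167), and it was higher in both double mutants than in the lipid mutants. The change was 0.77 ± 0.16 for opi1set2 against opi1 (adjusted p = 0.00130) and 0.88 ± 0.15 for cho2set2 against cho2 (adjusted p = 0.000883). These calls of HTA2 were kept without each library in turn, and without the library labelled cho2set2 replicate 1 the change against cho2 was 0.78 (adjusted p = 0.00915).

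HTB2 had 81.8 and 98.5 CPM in opi1set2, 181 and 200.1 in cho2set2, 44.3 and 56.9 in opi1, 121 and 114 in cho2, 218 and 195 in set2, and 242 and 261 in WT. Its order of genotypes was that of HTA2 except that set2 and cho2set2 overlapped. HTB2 fell by 2.31 ± 0.15 on the log2 scale in opi1 (edgeR adjusted p = 1.50e-07), by 1.48 ± 0.14 in opi1set2 (adjusted p = 3.41e-06) and by 1.09 ± 0.14 in cho2 (adjusted p = 0.000407), each against WT. In set2 its change of -0.28 ± 0.14 was not called (adjusted p = 0.132, 95% interval -0.58 to 0.02), nor was that of -0.40 ± 0.14 in cho2set2 (adjusted p = 0.0602), which DESeq2 called (adjusted p = 0.0397). It rose by 0.83 ± 0.15 in opi1set2 against opi1 (adjusted p = 0.000416) and by 0.69 ± 0.14 in cho2set2 against cho2 (adjusted p = 0.00337), or by 0.76 without cho2set2 replicate 1 (adjusted p = 0.00775). It was 1.20 ± 0.14 lower in opi1set2 than in set2 on the log2 scale (log2 change -1.20, adjusted p = 5.79e-05), and HTA2 was lower there too (-0.97 ± 0.15, adjusted p = 0.000567).

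HTA1 and HTB1, the more abundant H2A and H2B copies, were lowered in set2 and not detectably in opi1 or cho2. HTA1 had 531 and 639 CPM in opi1set2, 629 and 484 in cho2set2, 778 and 841 in opi1, 711 and 679 in cho2, 377 and 349.6 in set2, and 735 and 827 in WT. The set2 libraries were the lowest of all and stood apart from every other genotype. HTA1 fell by 1.11 ± 0.15 on the log2 scale in set2 against WT (edgeR adjusted p = 7.59e-05), which is 2.15-fold and the largest of the changes of the 10 genes in that comparison. In opi1 the change was 0.05 ± 0.15 with a 95% interval of -0.26 to 0.37 (adjusted p = 0.864), and in cho2 it was -0.17 ± 0.15 with an interval of -0.48 to 0.15 (adjusted p = 0.744). The falls of 0.42 ± 0.15 in opi1set2 (adjusted p = 0.0359) and of 0.49 ± 0.15 in cho2set2 (adjusted p = 0.0319) against WT were lost without single libraries. For opi1set2 these were WT replicate 2 (adjusted p = 0.207) and opi1set2 replicate 1 (adjusted p = 0.205), and for cho2set2 WT replicate 2 (adjusted p = 0.187) and cho2set2 replicate 2 (adjusted p = 0.297). Without cho2set2 replicate 1 the fall in cho2set2 was 0.69 and still called (log2 change -0.69, adjusted p = 0.0124). HTA1 was higher in opi1set2 than in set2, by 0.69 ± 0.15 (adjusted p = 0.00405). The rise of 0.62 ± 0.15 in cho2set2 against set2 (adjusted p = 0.0183) was lost without cho2set2 replicate 1 (adjusted p = 0.270), set2 replicate 1 (0.0970) or set2 replicate 2 (0.105). The fall of 0.47 ± 0.15 in opi1set2 against opi1 (adjusted p = 0.0184) was also lost without opi1 replicate 1 (adjusted p = 0.0534), opi1 replicate 2 (adjusted p = 0.131) or opi1set2 replicate 1 (adjusted p = 0.130).

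HTB1 had 554 and 655 CPM in opi1set2, 656 and 605 in cho2set2, 738 and 785 in opi1, 820.2 and 733 in cho2, 564 and 478 in set2, and 754 and 818 in WT. The opi1, cho2 and WT ranges overlapped, and the 3 genotypes labelled as lacking SET2 lay below all of them. HTB1 fell by 0.59 ± 0.14 on the log2 scale in set2 against WT (edgeR adjusted p = 0.00380). Its changes were -0.05 ± 0.14 in opi1 (adjusted p = 0.868, 95% interval -0.34 to 0.25) and -0.02 ± 0.14 in cho2 (adjusted p = 0.982, interval -0.31 to 0.27). The fall of 0.38 ± 0.14 in opi1set2 against WT (adjusted p = 0.0388) had adjusted p = 0.0544 without WT replicate 1, 0.189 without WT replicate 2 and 0.222 without opi1set2 replicate 1.

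HHT1 and HHF1, the divergent H3 and H4 pair of chromosome II, were lower in set2, opi1 and opi1set2. For HHF1 the calls in opi1 and in opi1set2 were lost without single libraries, as given below. Its call in opi1set2 was also lost in a fit of the groups compared alone (edgeR adjusted p = 0.0736). HHT1 had 302 and 339.8 CPM in opi1set2, 624 and 521 in cho2set2, 411 and 385 in opi1, 553 and 478 in cho2, 353 and 424 in set2, and 657 and 692 in WT. WT lay above each mutant, and opi1set2 lay below each other genotype. HHT1 fell by 1.07 ± 0.14 on the log2 scale in opi1set2 (edgeR adjusted p = 5.46e-05), by 0.76 ± 0.14 in opi1 (adjusted p = 0.00185) and by 0.80 ± 0.14 in set2 (adjusted p = 0.000665), each against WT. In cho2 the change of -0.39 ± 0.14 was not called (adjusted p = 0.298). HHT1 was 0.56 ± 0.14 higher in cho2set2 than in set2 (adjusted p = 0.0254), and that call was lost without the library labelled cho2set2 replicate 1 (adjusted p = 0.271) or set2 replicate 1 (adjusted p = 0.304).

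HHF1 had 649 and 742 CPM in opi1set2, 859 and 760.2 in cho2set2, 643 and 680.3 in opi1, 802 and 709 in cho2, 473 and 592 in set2, and 901 and 983 in WT. Here set2 was the lowest genotype, and WT again lay above each mutant. HHF1 fell by 0.82 ± 0.14 on the log2 scale in set2 against WT (edgeR adjusted p = 0.000555). The fall of 0.51 ± 0.14 in opi1 (adjusted p = 0.0227) had an adjusted p between 0.0552 and 0.132 when a library of opi1 or WT was left out. Without opi1 replicate 1 it was 0.132, without opi1 replicate 2 0.109, without WT replicate 1 0.0552 and without WT replicate 2 0.0911. The fall of 0.44 ± 0.14 in opi1set2 (adjusted p = 0.0245) was lost without WT replicate 2 (adjusted p = 0.137) or opi1set2 replicate 1 (adjusted p = 0.132). HHF1 was 0.60 ± 0.14 higher in cho2set2 than in set2 (adjusted p = 0.0170), which was lost without the library labelled cho2set2 replicate 1 (adjusted p = 0.174) or set2 replicate 1 (adjusted p = 0.253).

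HHT2 and HHF2, the H3 and H4 pair of chromosome XIV, differed from each other in the lipid mutants. HHF2, the less abundant H4 copy, had 121 and 139 CPM in opi1set2, 369 and 326 in cho2set2, 104 and 95.7 in opi1, 202 and 198 in cho2, 249.6 and 304 in set2, and 414 and 476 in WT. As with HTA2, no 2 of the 6 ranges overlapped. HHF2 fell by 2.16 ± 0.14 on the log2 scale in opi1 (edgeR adjusted p = 1.91e-07, 4.45-fold), by 1.78 ± 0.14 in opi1set2 (adjusted p = 5.95e-07), by 1.15 ± 0.14 in cho2 (adjusted p = 0.000231) and by 0.68 ± 0.14 in set2 (adjusted p = 0.00157), each against WT. It was 1.00 ± 0.14 lower in opi1 than in cho2 (log2 change -1.0, adjusted p = 0.000424) and lower in opi1set2 than in set2 (-1.09 ± 0.14, adjusted p = 9.98e-05). HHF2 rose by 0.79 ± 0.14 in cho2set2 against cho2 (adjusted p = 0.00103), and this call was kept without each library in turn, with a rise of 0.70 and an adjusted p = 0.0103 without cho2set2 replicate 1. The rise of 0.38 ± 0.14 in opi1set2 against opi1 (adjusted p = 0.0411) was lost with median-of-ratios scaling (adjusted p = 0.0553). It was also lost without opi1 replicate 1 (adjusted p = 0.0839), opi1 replicate 2 (adjusted p = 0.199) or opi1set2 replicate 2 (adjusted p = 0.214).

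HHT2, the H3 gene next to HHF2, had 472 and 461 CPM in opi1set2, 687 and 630.1 in cho2set2, 477 and 483 in opi1, 612 and 581 in cho2, 612 and 706 in set2, and 769 and 909 in WT. WT was again above each mutant. In opi1 the log2 change of HHT2 was -0.81, beside -2.16 for HHF2, a difference that was not tested. HHT2 fell by 0.81 ± 0.13 on the log2 scale in opi1 (edgeR adjusted p = 0.000583) and by 0.85 ± 0.13 in opi1set2 (adjusted p = 0.000172), each against WT. In cho2 its change of -0.49 ± 0.13 was not called (adjusted p = 0.0840), although DESeq2 called it (adjusted p = 0.00748). The fall of 0.35 ± 0.13 in set2 (adjusted p = 0.0493) was at the threshold. It had adjusted p = 0.318 without WT replicate 2, 0.294 without set2 replicate 1 and 0.0537 when the library labelled cho2set2 replicate 1 was left out of the shared fit. HHT2 was 0.50 ± 0.13 lower in opi1set2 than in set2 (log2 change -0.50, adjusted p = 0.0113), which was lost without set2 replicate 2 (adjusted p = 0.0945) or opi1set2 replicate 2 (adjusted p = 0.0688).

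Between the 2 genes of the pair, the ratio of HHT2 to HHF2 in FPKM was 2.96 and 2.52 in opi1set2, 1.42 and 1.47 in cho2set2, 3.48 and 3.83 in opi1, 2.30 and 2.22 in cho2, 1.86 and 1.76 in set2, and 1.41 and 1.45 in WT. The ratio was highest in opi1, and cho2set2 alone among the mutants overlapped WT. The other pairs moved more evenly in the lipid mutants. The ratio of HTA2 to HTB2 was 1.04 and 0.768 in opi1 and 0.977 and 0.999 in WT, and that of HTA1 to HTB1 was 1.05 and 1.06 in opi1 and 0.968 and 1.00 in WT. In set2 HTA1 had fallen more than HTB1, and their ratio was 0.663 and 0.727, below the 0.795 to 1.06 of each other genotype. The ratio of HTA2 to HTB2 in set2, at 0.629 and 0.827, was also below WT, but it overlapped other mutants. HHT1 to HHF1 stood at 0.353 and 0.348 in opi1set2 and at 0.554 and 0.534 in WT, with opi1 between them at 0.486 and 0.430. These ratios were not tested.

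HTZ1, which encodes H2A.Z, was the steadiest of the 10 genes. It had 145 and 176 CPM in opi1set2, 135 and 126 in cho2set2, 155 and 168 in opi1, 148 and 145 in cho2, 117 and 120.2 in set2, and 129.6 and 149 in WT. Its changes against WT lay between -0.23 ± 0.13 in set2 (edgeR adjusted p = 0.182) and 0.21 ± 0.13 in opi1 (adjusted p = 0.289), and none was called. The 1 call was a rise of 0.44 ± 0.13 on the log2 scale in opi1set2 against set2 (adjusted p = 0.0215). It was lost without set2 replicate 1 (adjusted p = 0.119), set2 replicate 2 (adjusted p = 0.0781) or opi1set2 replicate 2 (adjusted p = 0.210), and in a fit of the groups compared alone (adjusted p = 0.0655).

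HHO1, the linker histone gene, was lowest in opi1set2. It had 73.9 and 72.6 CPM in opi1set2, 126 and 137 in cho2set2, 141 and 123 in opi1, 173 and 161 in cho2, 137 and 141 in set2, and 156 and 212 in WT. The opi1set2 libraries stood apart from all others, and the 2 WT libraries were the most spread. HHO1 fell by 1.33 ± 0.15 on the log2 scale in opi1set2 against WT (edgeR adjusted p = 1.00e-05), by 0.85 ± 0.15 against opi1 (adjusted p = 0.000328) and by 0.92 ± 0.15 against set2 (adjusted p = 0.000583). These calls were kept without each library in turn. The smaller falls in opi1 (0.48 ± 0.14, adjusted p = 0.0323), cho2set2 (0.49 ± 0.14, adjusted p = 0.0284) and set2 (0.41 ± 0.14, adjusted p = 0.0405) against WT rested on single libraries. Without WT replicate 2 the adjusted p was 0.284 for opi1, 0.336 for cho2set2 and 0.468 for set2. The fall in opi1 was also lost without opi1 replicate 1 (adjusted p = 0.0563) or opi1 replicate 2 (adjusted p = 0.258). That in cho2set2 was lost without the library labelled cho2set2 replicate 1 (adjusted p = 0.130) or cho2set2 replicate 2 (adjusted p = 0.0869), and that in set2 without set2 replicate 1 (adjusted p = 0.175) or set2 replicate 2 (adjusted p = 0.106).

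The second copy gave a smaller share of H2A, H2B and H4 transcripts in the lipid mutants. HTA2 gave 10.9% and 12.2% of H2A counts in opi1set2, 25.2% and 27.6% in cho2set2, 5.63% and 4.98% in opi1, 12.7% and 14.1% in cho2, 26.8% and 31.8% in set2, and 24.5% and 24.1% in WT. The exact 95% binomial interval of the first opi1 library was 5.06% to 6.25% and that of the first WT library 23.6% to 25.4% (counting error only). HTB2 gave 12.9% and 13.1% of H2B counts in opi1set2, 21.6% and 24.9% in cho2set2, 5.67% and 6.76% in opi1, 12.9% and 13.5% in cho2, 27.9% and 29.0% in set2, and 24.3% and 24.2% in WT. HHF2 gave 15.7% and 15.8% of H4 counts in opi1set2, 30.0% in both cho2set2 libraries, 13.9% and 12.3% in opi1, 20.2% and 21.9% in cho2, 34.6% and 33.9% in set2, and 31.5% and 32.6% in WT. In all 3 histones the shares of opi1, opi1set2 and cho2 lay below those of WT without overlap, and those of set2 above. HHT2 gave 53.7% and 55.6% of H3 counts in opi1, 52.5% and 54.9% in cho2, and 53.9% and 56.8% in WT, which overlapped. In set2 its share was 63.5% and 62.5%, and in opi1set2 61.0% and 57.5%, both above the other genotypes. With reads that match both copies handled in a way not given here, these shares describe the counts as deposited.

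**Figure D4:**
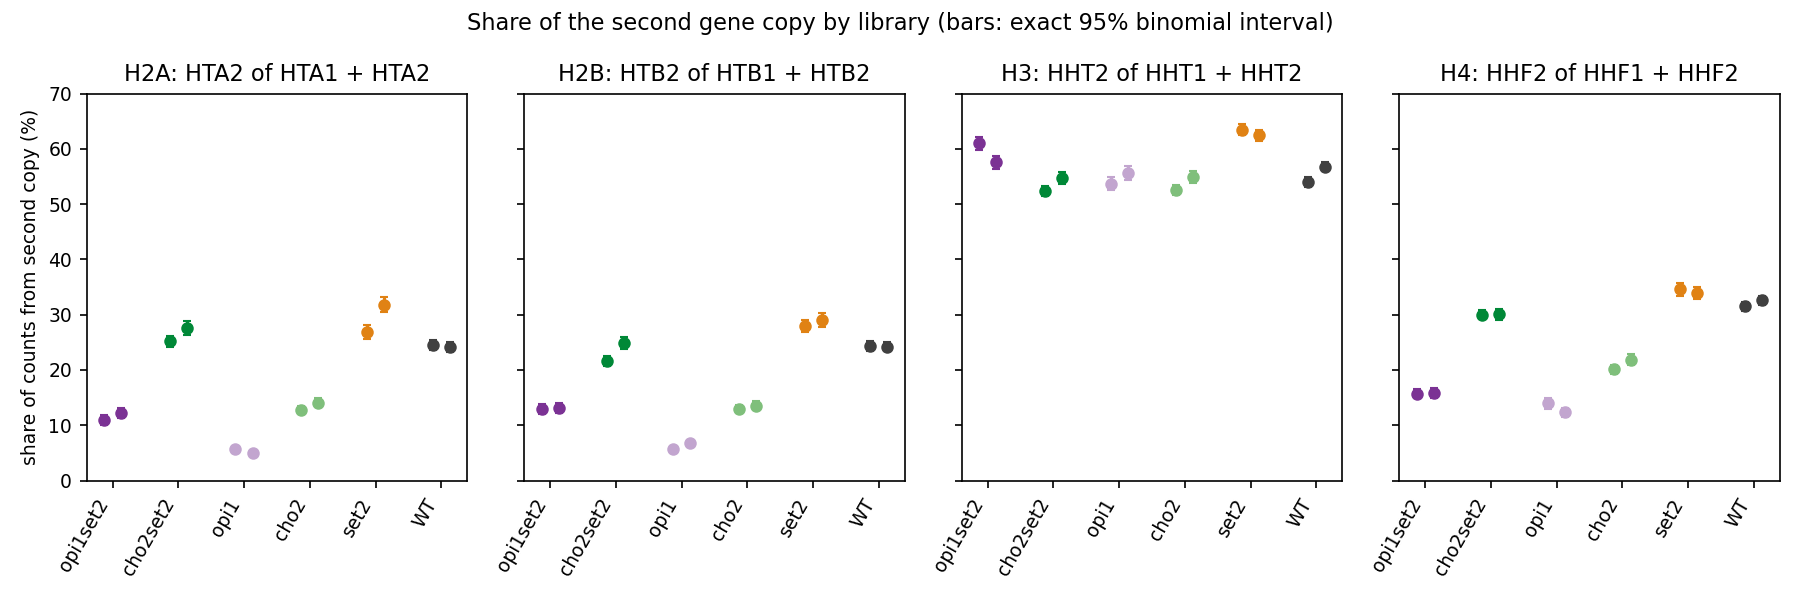
Share (%) of the counts of each core histone that came from the second gene copy (HTA2, HTB2, HHT2 or HHF2), per library by genotype, on axes that start at 0. Bars are exact 95% binomial intervals. The opi1 libraries are lowest for H2A, H2B and H4, and for H3 the 12 libraries lie between 52.4% and 63.5%.

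Summed over both copies, the fall in set2 was largest for H2A and that in opi1 for H4 and H3. The H2A sum was 514 ± 1.67 CPM in set2 and 1032 ± 82.6 CPM in WT (SD, n = 2 each), or 49.8% of WT. It was 854 ± 42.9 CPM in opi1, or 82.8% of WT, and 803 ± 16.8 CPM in cho2, or 77.8%. The H4 sum was 762 ± 20.5 CPM in opi1 and 1387 ± 102 CPM in WT, or 54.9% of WT, and the H3 sum was 879 ± 14.4 CPM in opi1 and 1514 ± 124 CPM in WT, or 58.0%. In set2 the H4 sum was 58.4% of WT, the H3 sum 69.2% and the H2B sum 70.1%. In opi1set2 the 4 sums were between 52.0% (H3) and 66.9% (H2B) of WT, and in cho2set2 between 73.2% (H2A) and 83.4% (H4). Each of these sums lay below those of WT in every library. The sums were not tested, and on CPM of total counts, which TMM does not rescale, the H4 sum in opi1 was 49.7% of WT and the H2A sum 74.9%.

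Whether loss of SET2 changed the histone genes differently in a lipid mutant than in cells with CHO2 and OPI1 was tested by interaction terms, the log2 change of the double mutant over the lipid mutant minus that of set2 over WT. For cho2, 5 of the 10 genes had a positive term and 0 a negative one (median 0.85, all genes 0.01), where 0.365% of all genes were positive and 0.547% negative. For opi1, 4 were positive and 0 negative (median 0.56, all genes 0.04), where 2.84% of all genes were positive and 2.63% negative. The cho2 and opi1 terms subtract the same change of set2 over WT, so they are not independent of each other. HTA2 had terms of 1.62 ± 0.21 for cho2 (edgeR adjusted p = 0.00215) and 1.5 ± 0.22 for opi1 (adjusted p = 0.00235). It was 0.88 higher in cho2set2 than in cho2, whereas in set2 it was lower than in WT (log2 change -0.74). HHF2 had terms of 1.48 ± 0.20 for cho2 (adjusted p = 0.00215) and 1.06 ± 0.20 for opi1 (adjusted p = 0.0110), and HTB2 of 0.98 ± 0.20 for cho2 (adjusted p = 0.0343) and 1.12 ± 0.20 for opi1 (adjusted p = 0.0102). HHT1 had a term of 0.95 ± 0.20 for cho2 (adjusted p = 0.0394), and HHF1 had terms of 0.92 ± 0.20 for cho2 (adjusted p = 0.0449) and 0.89 ± 0.20 for opi1 (adjusted p = 0.0253). For HTA1 the terms of 0.79 ± 0.21 and 0.64 ± 0.21 were not called by edgeR (adjusted p = 0.124 and 0.0804), but DESeq2 called both (adjusted p = 0.0155 and 0.0396), and with it 6 genes for cho2 and 5 for opi1. For HTZ1 they were 0.07 ± 0.18 and 0.22 ± 0.18 (adjusted p = 0.917 and 0.474).

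The cho2 terms of HTA2 and HHF2 were called without each library in turn, and so was the opi1 term of HTA2. Without cho2set2 replicate 1 the cho2 terms were 1.52 for HTA2 and 1.39 for HHF2. The number of all genes called moved as well, to between 9 (without set2 replicate 1) and 107 (without WT replicate 1) for cho2, against 60. For opi1 it moved to between 44 (without opi1 replicate 2) and 1144 (without opi1set2 replicate 1), against 360. The count for cho2 fell to 2 without WT replicate 2, set2 replicate 1, cho2 replicate 1, cho2 replicate 2 or the library labelled cho2set2 replicate 1. Without that last library the adjusted p was 0.0950 for HTB2, 0.218 for HHT1 and 0.236 for HHF1. The count for opi1 fell to 2 without set2 replicate 1, where HHF1 and HHF2 had adjusted p = 0.118 and 0.0643, without opi1 replicate 1, where HTB2 and HHF1 had adjusted p = 0.0586 and 0.0988, and without opi1 replicate 2, where HHF1 and HHF2 had adjusted p = 0.0925 and 0.0705.

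Regulators of the histone genes were described as a list of 12 genes. In set2 against WT 5 were higher and 1 lower (all genes 18.5% and 15.9%), and the largest rises were of 3 subunits of the HIR repressor complex, HIR3 (log2 change 1.03 ± 0.12), HIR1 (0.95 ± 0.17) and HIR2 (0.72 ± 0.13). In opi1 against WT 0 were higher and 2 lower (all genes 8.94% and 8.77%), ASF1, a histone chaperone that works with HIR (-1.11 ± 0.18), and HIR3 (-0.40 ± 0.13). In cho2 against WT edgeR and DESeq2 called 0, with 1 lower at an unadjusted p under 0.05. In opi1set2 against WT 5 were higher and 5 lower (all genes 21.3% and 17.9%), with ASF1 at -1.11 ± 0.18, HIR3 at 0.89 ± 0.12 and the chaperone gene RTT106 at 0.86 ± 0.12. HIR3 also rose in cho2set2 against cho2 (0.79 ± 0.12), where 4 were higher and 0 lower (all genes 11.3% and 5.58%). It rose in opi1set2 against opi1 too (1.29 ± 0.13), where 5 were higher and 2 lower (all genes 23.5% and 20.8%). EdgeR called 0 interaction terms among the 12. At an unadjusted p under 0.05 there was 1 positive term for cho2, and 1 positive and 2 negative for opi1, and DESeq2 called 0 for cho2 and 1 negative for opi1. The number lower in opi1 was 1 without each WT or opi1 library in turn and 3 without the library labelled cho2set2 replicate 1. The number lower in opi1set2 was 2 without WT replicate 2 and 2 without opi1set2 replicate 2, and 3 without WT replicate 1, and the number higher was 3 without WT replicate 2. The number higher in cho2set2 against cho2 stayed at 4 without cho2set2 replicate 1 but was 2 once the second library of cho2 or that of cho2set2 was left out, and in opi1set2 against opi1 the number lower was 1 without opi1 replicate 1, opi1 replicate 2 or opi1set2 replicate 2, and 4 without opi1set2 replicate 1. The 5 regulators higher in set2 numbered 4 to 5 without single libraries, and the 1 lower, ASF1, was lost without WT replicate 1 or set2 replicate 1. The summed level of the 12 was 772 and 723 CPM in opi1set2, 777 and 901 in cho2set2, 621 and 644 in opi1, 677 in both cho2 libraries, 814 and 879.6 in set2, and 707 and 711 in WT, with none at 0. By this sum the 3 genotypes labelled as lacking SET2 lay above WT, and opi1 and cho2 lay below it. The median log2 change of the 12 genes against WT was 0.22 in set2 and 0.19 in cho2set2, but -0.25 in opi1set2. The part of these genes in the histone results was not tested.

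Genes of the G1/S stage, when histone genes are switched on, moved with the histone genes in part. Of 26 G1/S genes, which serve the start of S phase and DNA synthesis, 0 were higher and 17 lower in opi1 against WT (median log2 change -0.84), where 8.94% of all genes were higher and 8.77% lower. The largest falls were those of the cyclin gene PCL1 (-3.12 ± 0.22), the ribonucleotide reductase gene RNR1 (-2.50 ± 0.15) and the cohesin gene MCD1 (-2.08 ± 0.18). In cho2 against WT, MCD1 alone was called lower (-1.01 ± 0.17), where 1.47% of all genes were lower. The median log2 change of the 26 genes there was -0.24 (all genes 0.00). At an unadjusted edgeR p under 0.05, 0 were higher and 8 lower. In set2 against WT, by contrast, 11 were higher and 2 lower (median 0.19, all genes 18.5% and 15.9%), while 8 histone genes were lower. The largest rises were those of the DNA polymerase genes POL2 (1.25 ± 0.17) and POL1 (1.05 ± 0.16) and of TOF1 (1.12 ± 0.20). RAD27 (-0.37 ± 0.14) and RFA2 (-0.36 ± 0.12) were the 2 lower. PCL1, RNR1 and MCD1, which fell most in opi1, were not called in set2 (-0.31 ± 0.18, 0.12 ± 0.13 and 0.16 ± 0.16). In opi1set2 against opi1, 17 were higher and 0 lower (median 0.84, all genes 23.5% and 20.8%), led by the S phase cyclin gene CLB6 (2.78 ± 0.32). Against WT, opi1set2 had 9 higher and 11 lower (all genes 21.3% and 17.9%), with SMC3 at 1.40 ± 0.15 and RNR1 at -1.71 ± 0.14. In cho2set2 against cho2, 10 were higher and 0 lower (all genes 11.3% and 5.58%). The opi1 interaction term was positive in 6 of the 26 (all genes 2.84%), and for cho2 edgeR and DESeq2 called 0, with 2 positive at an unadjusted p under 0.05.

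The summed level of the 26 G1/S genes was 1556 and 1552 CPM in opi1set2, 1663 and 2003 in cho2set2, 1031 and 1019.9 in opi1, 1514 and 1488 in cho2, 1946 and 1948 in set2, and 1692 and 1697 in WT, and none was at 0 in any library. Like HTA2, HTB2 and HHF2, this sum was lowest in opi1, and unlike them it was highest in set2 and in cho2set2 replicate 2. Its part in the histone results was not tested. Without single libraries the number of G1/S genes lower in opi1 ranged from 14 to 17 and the number higher in opi1set2 against opi1 from 15 to 17. The 11 higher in set2 became 6 without WT replicate 2, and the 2 lower became 0 without WT replicate 1, WT replicate 2 or set2 replicate 1, and 1 without set2 replicate 2 or the library labelled cho2set2 replicate 1. The 10 higher in cho2set2 against cho2 became 6 without cho2 replicate 2, and leaving out cho2set2 replicate 1 or 2 gave 11 or 5, and the 9 higher in opi1set2 against WT became 3 without WT replicate 2. The single gene called lower in cho2 was lost without cho2 replicate 2. The 6 positive opi1 terms became 1 without opi1 replicate 2, 2 without set2 replicate 1, and 3 without WT replicate 1, set2 replicate 2 or opi1 replicate 1, 4 without opi1set2 replicate 2, and 9 without opi1set2 replicate 1 or the library labelled cho2set2 replicate 1.

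**Figure D5:**
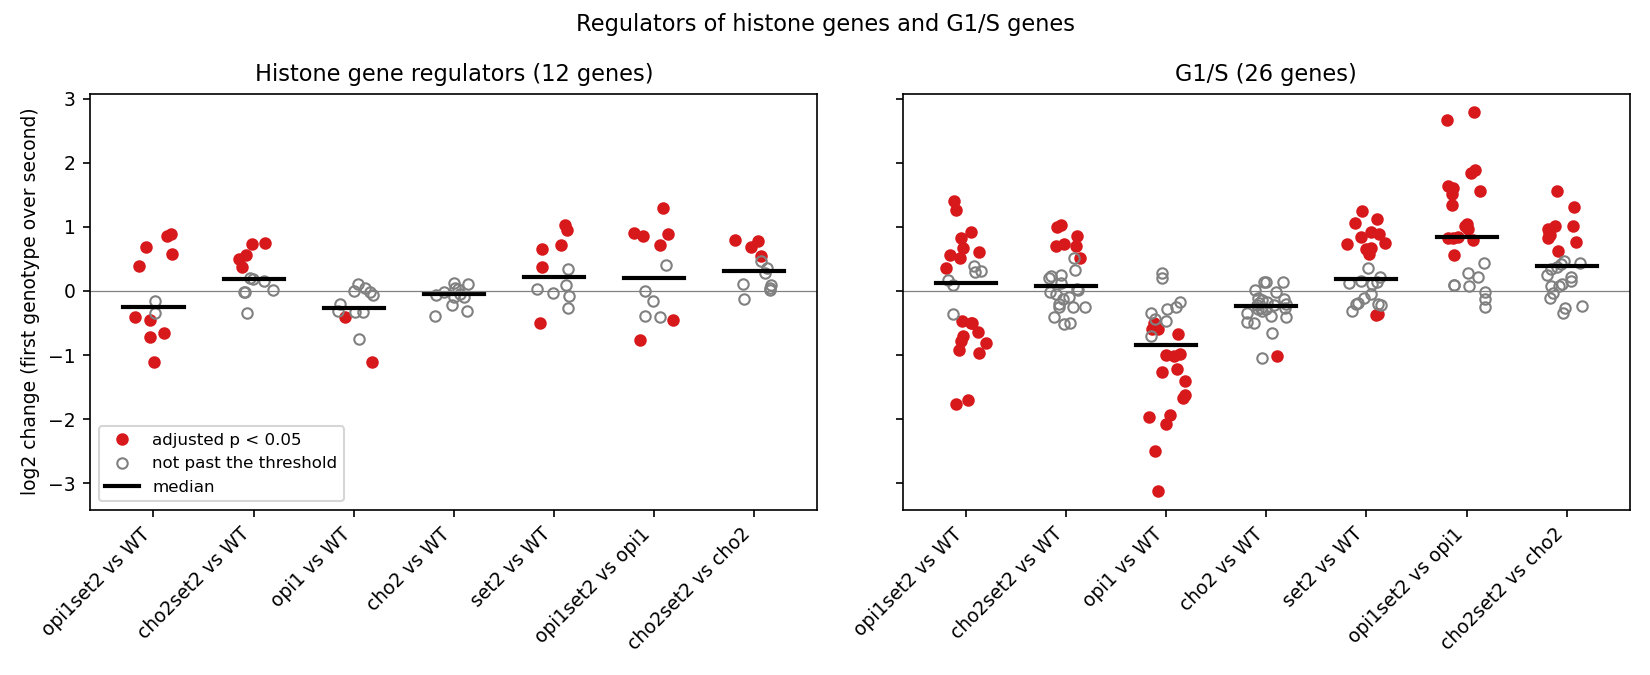
Log2 change of each of 12 histone gene regulators (left) and 26 G1/S genes (right) in 7 comparisons of genotypes, from edgeR. Filled red points have an adjusted p under 0.05, open points do not, and the bar is the median. G1/S genes lie mostly below 0 in opi1 against WT (median -0.84) and mostly above 0 in opi1set2 against opi1 (median 0.84).

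Of 12 G2/M genes, 0 were higher and 1 lower in opi1 against WT (BUD4, -0.63 ± 0.16), 1 was higher and 2 lower in set2 against WT, and 0 were called in cho2 against WT by edgeR or DESeq2, with 1 lower and 0 higher at an unadjusted p under 0.05. In opi1 8.94% of all genes were higher and 8.77% lower, and in set2 18.5% and 15.9%, so the G2/M counts are near or below the shares of all genes. Of 12 M/G1 genes, 0 were higher and 5 lower in opi1, with DSE2 at -0.86 ± 0.19, 1 was higher and 1 lower in set2, and 2 were higher and 3 lower in opi1set2 (all genes 21.3% and 17.9%), each against WT. The summed level of the M/G1 genes was 2521 and 2527 CPM in opi1, 3717 and 2881 CPM in set2, and 2745 and 2869 CPM in WT. These ranges did not overlap, but the 2881 CPM of set2 replicate 2 was close to the 2869 CPM of WT replicate 2. The summed level of the G2/M genes was 981 and 950.0 CPM in opi1, 970.4 and 1004 CPM in set2, and 957 and 969.7 CPM in WT, with overlap between opi1 and WT. No gene of either list was at 0, and their part in the histone results was not tested. Without single libraries the number lower in opi1 ranged from 0 to 5 for M/G1 and from 0 to 1 for G2/M. In set2 it ranged from 0 to 2 for G2/M, with 0 to 1 higher, and from 0 to 1 for M/G1, with 1 to 3 higher. In opi1set2 against WT the number of M/G1 genes lower ranged from 1 to 5.

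In set2 against WT, the chaperone and importer genes and the genes for H2A.Z exchange had counts of calls near or below the shares of all genes. Of 16 chaperone and importer genes, 0 were higher and 2 lower in opi1 against WT (all genes 8.94% and 8.77%). They were RLF2 (-0.87 ± 0.16) and CAC2 (-0.74 ± 0.15), which encode subunits of the chromatin assembly factor CAF-1, while the gene of its other subunit, MSI1, had -0.26 ± 0.15 and was not called (edgeR adjusted p = 0.280). In set2 against WT 2 were higher and 1 lower (all genes 18.5% and 15.9%), and RLF2 was among those higher (0.67 ± 0.15). In opi1set2 against opi1 4 were higher and 3 lower (all genes 23.5% and 20.8%), with RLF2 at 1.17 ± 0.16. Without single libraries the number lower ranged from 1 to 2 in opi1 against WT, from 0 to 2 in set2 against WT and from 0 to 4 in opi1set2 against opi1, and the number higher from 1 to 2 in set2. Of 14 genes for the exchange of H2A.Z, 2 were higher and 3 lower in set2 against WT (all genes 18.5% and 15.9%). Without single libraries 0 to 2 were higher and 0 to 4 lower, and DESeq2 called 0 higher and 3 lower. By edgeR those lower were SWC5 (-0.57 ± 0.16), the chaperone gene CHZ1 (-0.56 ± 0.18) and YAF9 (-0.50 ± 0.12). In opi1 and in cho2 against WT edgeR called 0. For opi1, DESeq2 called 1 higher, and at an unadjusted p under 0.05 there was 1 higher in opi1 and 0 in cho2. CSE4, which encodes the centromeric H3 variant, was the 1 gene called in its list of 3 in set2 against WT (-0.84 ± 0.16, edgeR adjusted p = 0.00109). It was higher than in set2 in opi1set2 (0.65 ± 0.16) and in cho2set2 (0.62 ± 0.16), but the count of the list was 0 for cho2set2 without the library labelled cho2set2 replicate 1 and ranged from 0 to 2 for opi1set2 without single libraries.

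Across the 12 libraries, HTA2 correlated with HHF2 at r = 0.99 and with HTB2 at r = 0.96 on log2(TMM CPM + 1), and HTA1 with HTB1 at r = 0.93. HTA2 and its paralog HTA1 had r = -0.24, and HTZ1 had r = -0.64 with HHF2. These values are descriptions, since the libraries come as 6 pairs and all genes share their scaling. Of 5620 other genes with a mean of at least 10 FPKM, those most like the mean profile of HTA2 and HTB2 were SPO16, PCL1 and PRI2, each with r = 0.93, and those most like HHT2 and HHF2 were GRX8 (0.95), the DNA primase gene PRI2 (0.94) and ASF1 (0.92). FIS1, ATG17 and REC114 were most like HTA1 and HTB1, each with r = 0.97. CLC1 (0.93), POB3 (0.91), a subunit of the histone chaperone FACT, and DCP1 (0.88) were most like HHT1 and HHF1. RTT102 (0.98), ARC19 (0.96) and PIB1 (0.95) followed HTZ1, and RVS167 (0.97), CAD1 (0.97) and LSB5 (0.96) followed HHO1. PCL1, PRI2, ASF1 and POB3 stand in the lists given above.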

How the data were processed

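RNA-seq counts per gene, with FPKM beside them, were deposited by the authors for 12 libraries of 6 genotypes. Per the submitters' processing notes, cutadapt 1.9.1, HISAT2 2.0.1, HTSeq 0.6.1 and the sacCer3 build were used, in roles not stated. Per the labels, RNA was total RNA from the MasterPure kit, while poly(A) selection, the strand setting and the handling of reads shared by near-identical genes are not given in the sources used here. The FPKM deposited by the authors matched values recomputed from the counts to within 0.005, and no per-sample column was left unused.

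Genes with at least 1 FPKM in at least 2 libraries were tested (6583 of 7126) with edgeR 4.0.16 (quasi-likelihood, TMM factors 0.897 to 1.077, 1 mean per genotype, 6 residual degrees of freedom, common biological coefficient of variation 0.12) in R 4.3.3. SE is the log2 change over the root of F. There were 12 comparisons, 2 of them interactions. Exact permutation of 2 against 2 libraries cannot go below p = 0.333, so no such test is given. Replicates of a genotype differed beyond sampling noise (chi-square per degree of freedom 7.87 to 24.9). Alternatives were DESeq2 1.42.0, median-of-ratios scaling, no filter, limma 3.58.1 on log2(FPKM + 1) and log2(FPKM + 0.1), a replicate block, the groups compared alone and each library left out. Omitting cho2set2 replicate 1 from the fits of comparisons without its genotype was added after seeing the data. Scripts were checked on simulated counts. Figures and sequences were made with Python 3.11.15, pandas 2.3.3 and matplotlib 3.10.9.

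The histone genes and gene lists were chosen with earlier results of these data known. Named genes are the 10 members, the 3 genes most correlated with each of 6 histone profiles, and per list the 3 largest changes past the threshold. A few further list members are named beside these. Gene coordinates of RefSeq R64 equalled the deposited ones for 6036 of 6048 matched genes.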

Additional observations from a re-analysis of the deposited data

Results flagged for a closer look

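Loss of SET2 had a different effect on 5 histone genes in cells that also lacked CHO2 or OPI1 than in otherwise wild-type cells, by edgeR's test of the difference of the log2 changes. Among the pairs of lower-abundance copies, HTA2 had a difference of 1.62 for cho2 and 1.5 for opi1, and HTB2 had 0.98 for cho2 and 1.12 for opi1. HHF2, the less abundant H4 copy, had 1.48 for cho2 and 1.06 for opi1. HHF1 had 0.92 for cho2 and 0.89 for opi1, and HHT1 had 0.95 for cho2. In each case the change in the double mutant over the lipid mutant was the higher one. The cho2 and opi1 values subtract the same change of set2 over WT, so they are not independent of each other. For HHF1 that shared change was -0.82. Its changes were 0.10 in cho2set2 over cho2 and 0.07 in opi1set2 over opi1, neither of them called. The values of HTA2 for both mutants and of HHF2 for cho2 were called without each library in turn. The others were lost without 1 or more single libraries. DESeq2 also called HTA1, for both mutants.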

How the results depend on the processing

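No alternative turned the direction of a called change. Of the counts of histone genes called, 122 stayed within 1.5 times and 26 did not. Of the single changes, 113 lost and 19 gained the threshold and 27 uncalled ones changed sign. For cho2set2 against WT (2 called), DESeq2 called 4, limma called 1 with either pseudocount, the groups compared alone gave 0, and leaving out a library gave 0 to 3. For cho2set2 against set2 (3), limma called 0 with either pseudocount and leaving out a library gave 0 to 3. For the cho2 interaction (5), limma called 2 with either pseudocount, the replicate block 3, the groups compared alone 3, and leaving out a library gave 2 to 5. The opi1 interaction (4) gave 2 to 5 and opi1set2 against opi1 (5) gave 3 to 5 without single libraries. For opi1 against cho2 (3), the groups compared alone gave 6. Leaving out a library gave 6 to 8 for set2, 3 to 3 for cho2, 5 to 6 for opi1 and 6 to 9 for opi1set2 against WT, 5 to 8 for opi1set2 against set2, and 3 to 3 for cho2set2 against cho2 and for opi1 against cho2. The cause was not tested.

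On CPM of total counts the summed H2A level moved to 778.4 in opi1, 781 in cho2 and 542 in set2, H2B to 740.1 in opi1, H3 to 824 in opi1set2 and 801 in opi1, and H4 to 694 in opi1. Over all genes, DESeq2 called 184 for cho2 against WT, against 113 with edgeR, with 31.0% and 14.2% of calls higher. For the cho2 interaction it called 127, limma 18 and 15, and edgeR 60, with 54.3% (DESeq2) and 40.0% (edgeR) positive. For the opi1 interaction DESeq2 called 615, limma 189 and 184, and edgeR 360. For opi1 against cho2 the groups compared alone gave 1167, against 579. On FPKM without TMM, limma at a pseudocount of 1 had 30.0% of calls higher in opi1 against WT (50.5% with edgeR, all-gene median -0.14), 72.2% in opi1set2 against opi1 (53.1%, median 0.19), 36.1% in cho2set2 against set2 (50.9%), 34.3% in opi1 against cho2 (48.5%) and 73.0% for the opi1 interaction (51.9%, median 0.15). Replicate numbers did not pair the libraries: over 15 pairs of genotypes, same-numbered libraries deviated together at r between -0.329 and 0.329 (median 0.008), and the replicate block moved no other count of histone genes by over 1.5 times. Under the block the adjusted p was 0.0515 for HTB1 in opi1set2 against WT, 0.0514 for HHF2 in opi1set2 against opi1, 0.0631 for HHT2 and 0.0524 for HHO1 in set2 against WT, and 0.0560 for HHT1 and 0.0585 for HHF1 in the cho2 interaction, all called without it. With 2 libraries a genotype, small changes may not be detectable.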
